A study of Mus musculus with 8 samples.

Results

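Transcripts of 9 genes that mark macrophages or direct their development were followed in libraries of mouse mesothelial cells labelled WT or BAP1 KO. The genes are Lyz2 and Lyz1, Ptprc, Csf1r, Adgre1, Lst1, Spi1, Maf and Cebpb. They were taken by name from a list of macrophage lineage genes and regulators and found by their Entrez identifiers, 9 of the 36528 identifiers in each deposited table. All 9 passed the filter on low counts, so 9 of the 16929 genes tested are described here. The libraries came from primary mesothelial cells of the omentum, the lining cells of a fatty fold of the abdominal cavity, and hold polyadenylated RNA. There were 4 libraries of each label, numbered here as replicates 1 to 4 in accession order since the labels give no number, and BAP1, a nuclear deubiquitinase of histone H2A, is the targeted gene. Strain, age, culture conditions, the exons deleted and the way the knockout was made are named in none of the sources used here, and these also leave unsaid whether a genotype's 4 libraries stem from different animals. The question is what differs in RNA between the libraries labelled BAP1 KO and those labelled WT. The genes followed are listed for macrophages, a cell type that the labels do not name. Which cells in a library made these transcripts cannot be told from bulk RNA.

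Macrophages arise from yolk sac, fetal liver or bone marrow precursors, and PU.1, encoded by Spi1, is the transcription factor that commits precursors to the myeloid lineage and keeps macrophage genes active. PU.1 acts with factors of the C/EBP family, such as Cebpb, and of the MAF family, such as Maf. Among the genes these factors control is Csf1r, the receptor for the growth factors CSF1 and IL-34, on which most tissue macrophages depend. Serous cavities and the omentum hold resident macrophages, and mesothelial and stromal cells there are a known source of CSF1.

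Counts per library ranged from 67.1 to 84.9 M, above the number of reads that the labels' protocol names. Bap1 itself stood at 62.6 to 64.2 CPM (counts per 1 M of the scaled library total) in WT and at 52.0 to 54.0 CPM in BAP1 KO, a log2 fold change of -0.25 ± 0.03 (standard error; edgeR adjusted p = 2.1e-09). Since the deleted exons are not named, this level is no check of the labels. Of 13 mesothelial markers all were tested, 6 higher and 5 lower in BAP1 KO, and their levels differed widely. Upk3b, the highest, was at 462 and 464 CPM (means in WT and BAP1 KO). The keratins Krt18, Krt19 and Krt8 were at 11.7 and 4.47, 3.19 and 3.31, and 2.35 and 0.79 CPM. The summed level of the 13 was 1255 to 1284 CPM in WT and 1337 to 1347 CPM in BAP1 KO. Of 21 markers of mature macrophages all were tested too, and their sum was 9812 to 10019 CPM in WT and 10196 to 10361 CPM in BAP1 KO. Transcripts of both lists were thus present in every library, although the labels name mesothelial cells alone. In bulk RNA, fewer cells of a type and less RNA per cell cannot be told apart.

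The pair of lysozyme genes is shown first, because their near identity bears on how each can be counted. Lyz2 (Entrez 17105; GRCm38 chromosome 10, 117277541 to 117282272) encodes lysozyme M of macrophages and granulocytes, and Lyz1 (Entrez 17110; chromosome 10, 117287795 to 117292868) encodes lysozyme P, best known from Paneth cells of the gut. Both lie on the minus strand, 5522 bases apart. Their coding sequences, 444 bases without the stop codon, differ at 22 positions and are 95.0% identical. The first 240 coding bases of the GENCODE vM21 transcripts, 5′ to 3′, follow, with the 17 differing positions of that stretch in capitals.
Lyz1: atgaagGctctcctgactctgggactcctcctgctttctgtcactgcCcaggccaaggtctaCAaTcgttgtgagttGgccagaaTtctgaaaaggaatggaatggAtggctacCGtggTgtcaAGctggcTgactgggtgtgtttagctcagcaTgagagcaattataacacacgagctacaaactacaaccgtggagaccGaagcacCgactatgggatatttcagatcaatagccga
Lyz2: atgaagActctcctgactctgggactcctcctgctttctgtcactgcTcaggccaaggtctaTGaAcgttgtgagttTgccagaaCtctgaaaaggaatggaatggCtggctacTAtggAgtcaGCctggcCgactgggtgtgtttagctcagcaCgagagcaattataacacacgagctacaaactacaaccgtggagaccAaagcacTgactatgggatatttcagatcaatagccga
The deposited counts are of uniquely aligning reads of 50 bases. Of the 395 windows of 50 bases in the coding sequence, 80 hold no difference between the genes, 48 hold 1 and 237 hold at most 2. Over the whole transcripts, 84.6% of the Lyz2 windows and 83.9% of the Lyz1 windows occur in no transcript of another gene, and the windows shared belong to the other lysozyme. A read lying wholly in a shared window has no unique place and enters neither count.

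Upstream of their starts the pair are similar as well. The 250 bases before each start (RefSeq, GRCm38.p6, minus strand) are chr10:117292869-117293118 for Lyz1 and chr10:117282273-117282522 for Lyz2. They are printed because the genes are neighbours that rose by different amounts. Capitals mark bases that differ or are unpaired in a global alignment of the pair, in which 200 bases were identical and 48 mismatched, and the 50 bases next to the start were the same.
Lyz1: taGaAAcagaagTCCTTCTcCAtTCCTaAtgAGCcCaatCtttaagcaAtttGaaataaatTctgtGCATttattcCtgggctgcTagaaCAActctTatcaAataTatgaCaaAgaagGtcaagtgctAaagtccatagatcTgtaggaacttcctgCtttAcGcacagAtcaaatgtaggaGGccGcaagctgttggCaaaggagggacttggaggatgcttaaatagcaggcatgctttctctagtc
Lyz2: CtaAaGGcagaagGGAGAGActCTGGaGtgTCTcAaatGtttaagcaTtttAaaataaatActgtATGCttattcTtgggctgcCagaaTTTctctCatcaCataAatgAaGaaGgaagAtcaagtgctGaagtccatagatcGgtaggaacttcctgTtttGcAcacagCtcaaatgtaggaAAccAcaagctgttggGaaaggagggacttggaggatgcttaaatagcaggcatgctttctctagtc
Letters of 3 factors were searched on both strands of these 250 bases. GAGGAA, for PU.1, occurs in 23.3% of 32851 promoters of this length. TTGCGCAA and TTGCGTAA, for C/EBP factors, occur in 0.164% and 0.152%, and TGCTGAC, for MAF factors, in 3.81%. None of the 4 was present in the windows of Lyz1, Lyz2 or Cebpb, which says only that these letters are not there. The promoter table holds 4 of the 9 genes: Lyz1, Lyz2, Cebpb and Ptprc. Ptprc, the single gene of the 9 that fell, has 2 starts in it, and GAGGAA, in capitals, begins at position -158 of the outer of these (chr1:138175306-138175555, minus strand). Both windows lie inside the annotated span of Ptprc, which reaches 138175756, so neither precedes the gene's outermost annotated start.
Ptprc: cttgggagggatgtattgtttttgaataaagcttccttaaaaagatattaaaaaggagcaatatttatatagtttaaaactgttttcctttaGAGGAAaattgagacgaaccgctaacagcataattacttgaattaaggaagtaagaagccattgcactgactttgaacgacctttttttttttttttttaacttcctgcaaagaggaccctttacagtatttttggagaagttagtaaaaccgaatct
A match of this kind is a description of letters, not of binding.

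BAP1 KO libraries held more of most of these transcripts and less of 1. Of the 9 genes, 7 were higher (Lyz1, Lst1, Lyz2, Spi1, Maf, Adgre1 and Csf1r), Ptprc was lower and Cebpb did not pass the test (edgeR's quasi-likelihood test, Benjamini-Hochberg adjusted p below 0.05 over all genes tested). Over all genes, 61.1% passed, 29.0% higher and 32.1% lower. The median log2 fold change of the 9 was 0.26 beside 0 over all genes tested. In 8 of the 9 genes the ranges of the 4 WT and 4 BAP1 KO libraries did not overlap, against 53.8% of all genes. For each of these 8 a two-sided exact permutation test over the libraries came to p = 0.029, which 4 against 4 libraries cannot go below. Ranges that do not overlap always give this value, so it repeats the same result and adds no support. In 7 of the 9 genes, Cebpb among them, the change was under 1.5-fold, as it was in 75.8% of all genes that passed.

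**Figure D1:**
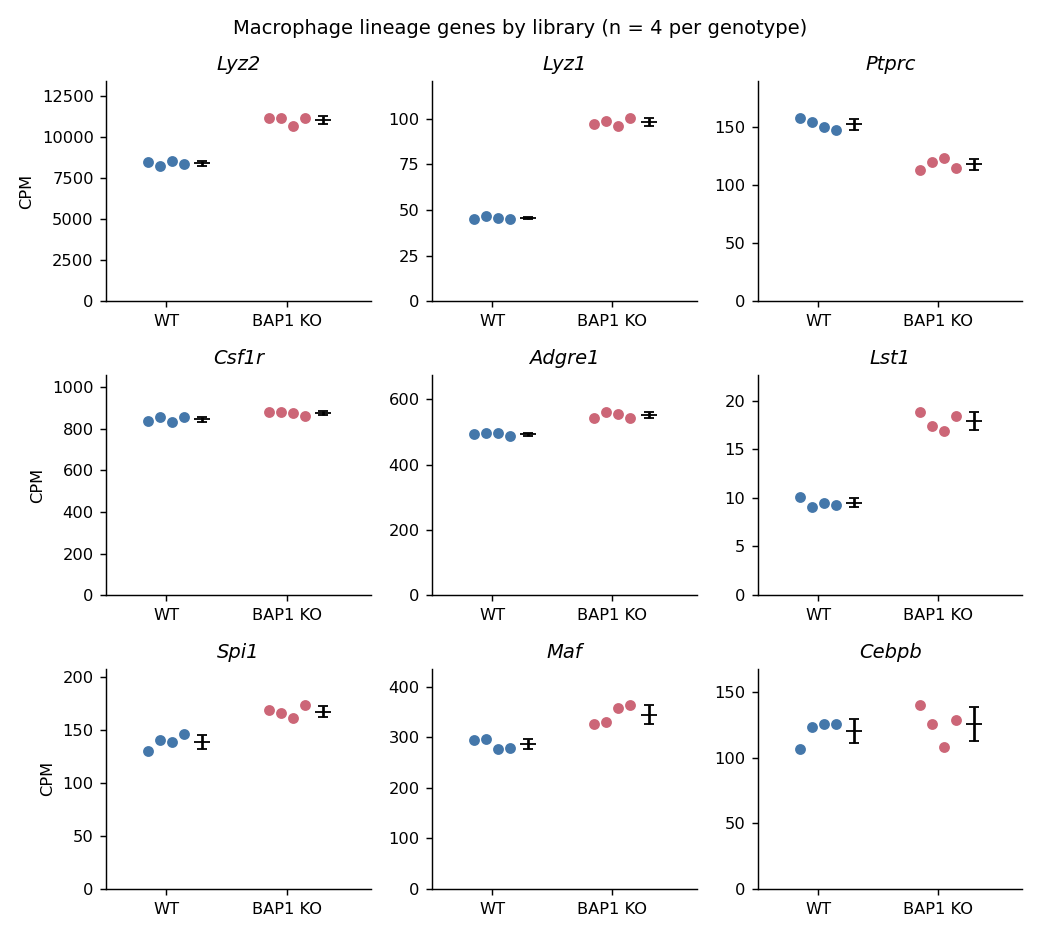
CPM (y axis from 0) of the 9 genes in each library, WT in blue and BAP1 KO in red, with the mean and SD of the 4 libraries in black. The genotypes lie apart in every panel except that of Cebpb, and Ptprc is the panel in which BAP1 KO lies below WT.

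Both lysozymes rose, the rarer one by more. Lyz2 stood at 8455, 8225, 8554 and 8318 CPM in WT replicates 1 to 4 and at 11160, 11154, 10675 and 11119 CPM in BAP1 KO. The lowest BAP1 KO library was 2121 CPM above the highest WT library. Means were 8388 ± 146 and 11027 ± 235 CPM (SD, n = 4), a log2 fold change of 0.39 ± 0.02 (standard error, as for all fold changes here; edgeR adjusted p = 1e-17). Lyz2 held 0.824 to 0.863% of all counts in WT and 1.06 to 1.11% in BAP1 KO, and by RPKM it took place 1 among the tested genes in each of the 8 libraries. Counts of Lyz1 came to 45.2, 46.5, 45.8 and 45.3 CPM in WT and at 97.2, 98.9, 96.1 and 100.6 CPM in BAP1 KO. It thus rose 2.15-fold, a log2 fold change of 1.10 ± 0.03 (adjusted p = 2.5e-25), on 3058 to 7835 counts a library. For every Lyz1 count there were 177 to 187 Lyz2 counts in WT and 111 to 115 in BAP1 KO, so the counts of Lyz1 were not a fixed share of those of Lyz2. Of the 9 genes of the lysozyme family, 6 were too low to be tested, 4 of them (Lyzl1, Lyzl6, Lalba and Lyg1) with 0 counts in all libraries. The third tested, Lyzl4, a testis lysozyme, was at 0.43 and 0.25 CPM (-0.80 ± 0.27, adjusted p = 0.011; 0.061 without WT replicate 3). Among 6 genes beside the lysozymes on chromosome 10, 1 rose, the chaperonin subunit Cct2 (0.17 ± 0.02), and 0 fell (edgeR; 0 also at an unadjusted p of 0.05, by DESeq2 and by limma-voom). With pan-leukocyte scaling and with the deposited RPKM 2 of these 6 passed as higher.

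Csf1r, the CSF1 receptor (Entrez 12978; chromosome 18, 61105572 to 61131139), changed least of the genes that passed. Its values were 840.5, 859, 834 and 856 CPM in WT and 883, 884, 878 and 862 CPM in BAP1 KO. The genotypes were 3.64 CPM apart at their nearest libraries. The log2 fold change was 0.05 ± 0.02 (adjusted p = 0.029, and 0.0013 to 0.12 over 17 alternative settings). The call was lost with upper quartile factors (adjusted p = 0.064), library totals alone (0.12) or all genes tested without a filter (0.065). Leaving out 1 library ended it for WT replicate 1 (0.051) or 3 (0.094) and for BAP1 KO replicate 1 (0.075), 2 (0.073) or 3 (0.057). Exons of Csf1r share 873 bases, 15.1% of its annotated exon bases, with Hmgxb3 on the opposite strand, and Hmgxb3 stood at 44.1 and 49.7 CPM (0.17 ± 0.03). The kit does not mark the strand, so reads from the shared bases cannot be told apart. Its ligand Csf1 was abundant, at 1978 to 2000 CPM in WT and 2250 to 2274 CPM in BAP1 KO (0.19 ± 0.02, adjusted p = 9.3e-11). The other ligand, Il34, went from 15.1 to 16.3 CPM in WT to 19.7 to 20.3 CPM in BAP1 KO (0.35 ± 0.04). In counts, Csf1 exceeded its receptor 2.32 to 2.37 times in WT and 2.56 to 2.63 times in BAP1 KO. Of 15 genes of CSF1R ligands and signalling, 10 rose and 4 fell, leaving 1 that did not pass, and the median was 0.19. The kinase Src rose (0.36 ± 0.03) and the kinase Fyn fell (-0.24 ± 0.03).

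The 3 other surface proteins moved apart. Ptprc (Entrez 19264; chromosome 1, 138062859 to 138175756) encodes CD45, the tyrosine phosphatase carried by leukocytes. It stood at 158, 154, 149.7 and 148 CPM in WT and at 113, 119.9, 123 and 115 CPM in BAP1 KO, lower in every BAP1 KO library, with a log2 fold change of -0.37 ± 0.03 (adjusted p = 3.4e-13). Adgre1 (Entrez 13733; chromosome 17, 57358581 to 57483529), the adhesion receptor F4/80 of mouse macrophages, was the steadiest gene of the 9 in WT, at 494, 498, 496 and 488 CPM. In BAP1 KO it was higher in each library, at 544, 563, 556 and 543 CPM (0.16 ± 0.02, adjusted p = 3.5e-08). Lst1 (Entrez 16988; chromosome 17, 35185095 to 35188440) encodes a small membrane protein of leukocytes. It was the rarest of the 9 by CPM, with 685 to 1373 counts a library. Its level went from 10.1, 9.07, 9.47 and 9.30 CPM in WT to 18.9, 17.3, 16.8 and 18.4 CPM in BAP1 KO, which is 1.88-fold (0.91 ± 0.05, adjusted p = 1.8e-16).

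Neighbours of Lst1 on chromosome 17 were also higher where they passed. Of 6 listed, 5 were found and 4 tested, of which 3 rose and 0 fell (edgeR; 0 also at an unadjusted p of 0.05, by DESeq2 and by limma-voom). They are the macrophage calcium-binding protein Aif1 (0.52 ± 0.03), the cytokine Tnf (0.46 ± 0.04) and Nfkbil1 (0.22 ± 0.05, adjusted p = 0.00031). Ltb stood at 0.71 and 0.89 CPM (adjusted p = 0.077).

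Of the 3 transcription factors, Spi1 and Maf rose by similar amounts and Cebpb did not pass. Spi1 (PU.1; Entrez 20375; chromosome 2, 91082374 to 91115759) was at 130.5, 140.4, 139 and 146 CPM in WT and reached 169, 166, 161 and 173 CPM in the BAP1 KO libraries (0.27 ± 0.03, adjusted p = 1.9e-09), and its lowest BAP1 KO library was 15.3 CPM above the highest of WT. Maf (c-MAF; Entrez 17132; chromosome 8, 115703253 to 115706894) was at 295, 297, 278 and 279 CPM in WT. In BAP1 KO it was at 327, 331, 358 and 363 CPM, with replicates 3 and 4 above replicates 1 and 2 and all above WT (0.26 ± 0.03, adjusted p = 1.9e-06). Annotated exons of Maf share 440 bases with Gm15655 on the opposite strand. Cebpb (Entrez 12608; chromosome 2, 167688915 to 167690432) spread most within a genotype. Its values were 106, 123, 126 and 125 CPM in WT and 139.8, 125, 108 and 129 CPM in BAP1 KO, so the genotypes overlapped. The coefficient of variation was 7.8% in WT and 11% in BAP1 KO, where that of Adgre1 was 0.90 and 1.8%. Its log2 fold change was 0.06 ± 0.09 (adjusted p = 0.61, and 0.16 to 0.96 over the alternatives; exact permutation p = 0.486, two-sided). This does not show that Cebpb was alike in both genotypes. Exons of Cebpb share 312 bases, 20.7% of its exon bases, with Tmem189 on the opposite strand, which stood at 112 and 113 CPM.

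**Figure D2:**
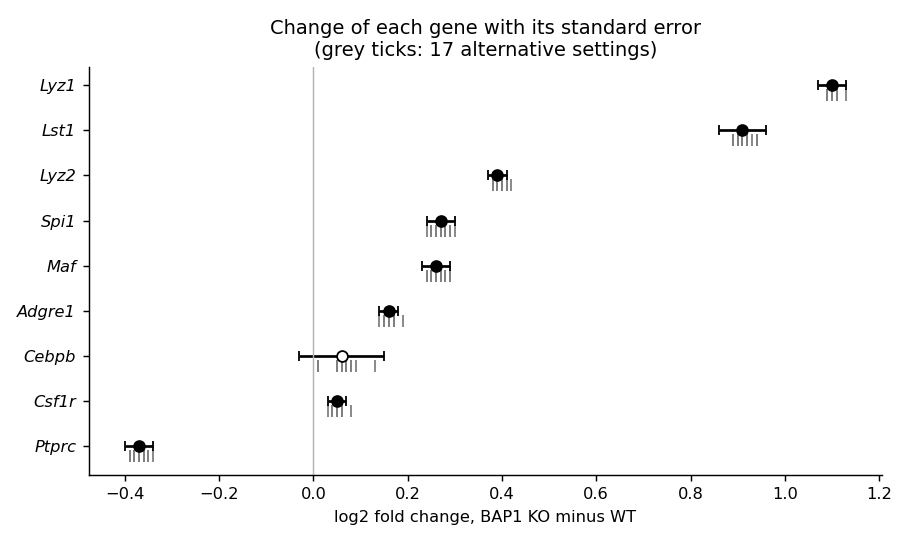
Log2 fold change of BAP1 KO minus WT (x axis) for each of the 9 genes, with the standard error as bars, filled where the adjusted p was below 0.05. Grey ticks give the fold change under the 17 alternative settings, which all keep the sign of the main value and run from 0.03 to 0.08 for Csf1r and from 0.01 to 0.13 for Cebpb.

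Relatives of these factors moved both ways. Cebpa, the C/EBP factor of early myeloid cells, was at 98.1 and 97.0 CPM (adjusted p = 0.60), and Cebpd rose by 0.37 ± 0.06 from 46.0 CPM. Of 14 relatives of Cebpb, Maf and Spi1, 13 were tested. Of these, 7 rose, 1 fell and 5 missed the threshold, and their median was 0.14. The largest rise among those that passed was that of Ddit3, a stress-induced C/EBP relative (0.60 ± 0.04), and the small MAF proteins Mafg and Maff rose by 0.24 ± 0.02 and 0.20 ± 0.03. Among 21 other macrophage transcription factors all were tested, with 10 falls, 6 rises and a median of -0.04. Falls included Ets2 (-0.34 ± 0.02) and Bhlhe40 (-0.18 ± 0.02), and Mitf, a factor of macrophages and osteoclasts, rose by 0.36 ± 0.04. Irf8, which guides monocyte development, went from 77.2 to 70.5 CPM (-0.13 ± 0.03, adjusted p = 0.00019). Cebpa, Cebpd and Spic are among the genes in both lists.

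Levels of different genes can be set beside each other only per length, for which the deposited size-factor-adjusted RPKM were used. In WT the order was Lyz2 (7835 ± 140 RPKM, SD, n = 4), Csf1r (194), Adgre1 (149), Spi1 (95.7), Cebpb (78.2), Maf (77.8), Lyz1 (35.7), Ptprc (25.6) and Lst1 (22.5). Cebpb and Maf were the only neighbours in that order whose libraries overlapped. In BAP1 KO, Lyz2 stood at 10386 ± 228 RPKM (SD, n = 4), again followed by Csf1r (203), Adgre1 (167) and Spi1 (116). Maf (94.2), Cebpb (82.3) and Lyz1 (77.3) came next, where Cebpb overlapped both of its neighbours, and Lst1 (42.7) and Ptprc (20.0) closed the order. By RPKM, Lst1 and Ptprc thus changed places between the genotypes. With CPM per kb of annotated exon in place of the RPKM, Lyz2 stayed in place 1 and Ptprc was in place 9 in both genotypes. Lst1 then stood above Ptprc in both, so their exchange was not seen. Several genes between Lyz2 and Ptprc changed places, Maf to place 7 in WT and place 8 in BAP1 KO. The order below Lyz2 thus rests on the length used.

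**Figure D3:**
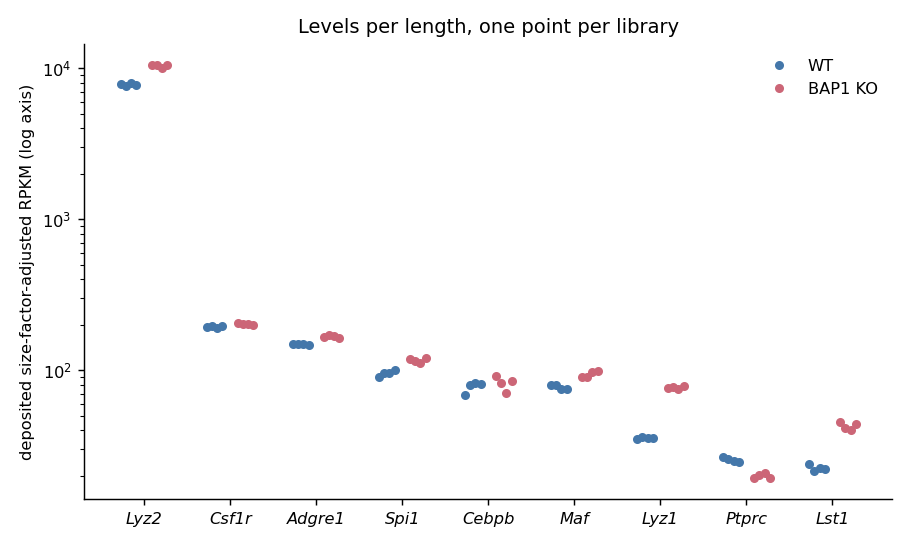
Deposited size-factor-adjusted RPKM (y axis, log scale) of the 9 genes in each library, WT in blue and BAP1 KO in red, ordered by the WT mean. Lyz2 lies far above the other 8 genes in both genotypes, and Lst1 and Ptprc exchange places between WT and BAP1 KO. That exchange is not seen with CPM per kb of annotated exon.

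Relative to other leukocyte genes taken as a group, those of the 9 that passed kept their directions. Of 16 genes expressed across leukocytes, 9 rose and 6 fell, and the median was 0.05. Their summed level was 4200 to 4282 CPM in WT and 4192 to 4232 CPM in BAP1 KO. Coro1a (-0.89 ± 0.03), which binds actin, Cd52 (-0.59 ± 0.03) and Lcp1 (-0.33 ± 0.02) fell with Ptprc, and the phosphatase Ptpn6 rose (0.33 ± 0.02). Csf1r, Adgre1, Spi1 and Maf rose by less than Ptpn6, and Ptprc fell by less than Coro1a. Against a single leukocyte gene the direction thus depends on the gene chosen. When libraries were scaled to these 16 genes in place of TMM factors, Lyz2 was at 0.42, Lyz1 at 1.13, Lst1 at 0.94, Spi1 at 0.30, Maf at 0.29, Adgre1 at 0.19, Csf1r at 0.08 and Ptprc at -0.34, all with the same calls. Per Ptprc count there were 5.32 to 5.79 Csf1r counts in WT and 7.13 to 7.78 in BAP1 KO. Per Csf1r count there were 0.569 to 0.595 Adgre1 counts in WT and 0.616 to 0.637 in BAP1 KO, and 9.58 to 10.3 against 12.2 to 12.9 Lyz2 counts. The genotypes' ranges lay apart in each of these ratios, on which no test was run. The ratios restate the unequal fold changes given above and add no support to them.

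**Figure D4:**
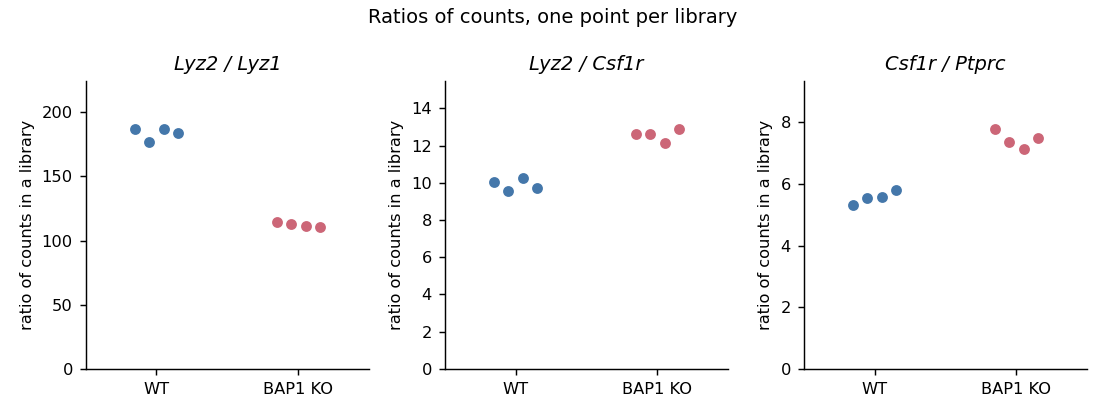
Ratios of counts within a library (y axes from 0), one point per library, for Lyz2 over Lyz1, Lyz2 over Csf1r and Csf1r over Ptprc. The ranges of WT (blue) and BAP1 KO (red) lie apart in all 3 panels: 177 to 187 against 111 to 115, 9.58 to 10.3 against 12.2 to 12.9, and 5.32 to 5.79 against 7.13 to 7.78. The ratios restate the unequal fold changes of these genes.

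Markers of mature macrophages also moved both ways. Of 21, 13 fell and 7 rose, and their median was -0.13, where that of the 9 genes was 0.26. The scavenger receptor Marco (553.5 ± 22 and 1008 ± 11 CPM, SD, n = 4; 0.86 ± 0.02) and the sialic acid lectin Siglec1 (397 ± 15 and 754 ± 17 CPM; 0.92 ± 0.02) rose. The endotoxin receptor Cd14 (149 ± 3.3 and 74.8 ± 1.0 CPM; -0.99 ± 0.02) and Ms4a7 (-0.57 ± 0.03) fell. Of 9 genes of large peritoneal macrophages, the resident cells of that cavity, 7 fell, and the median of all 9 was -0.60. None rose (edgeR; 1 at an unadjusted p of 0.05, 0 by DESeq2 and by limma-voom), though 1 did with pan-leukocyte scaling, and 1 each when WT replicate 4 or BAP1 KO replicate 1 was left out. Icam2 (4.5 and 1.5 CPM, -1.60 ± 0.09) and Selp (5.5 and 2.2 CPM, -1.34 ± 0.08) are also made by endothelium. Which cells made them here was not tested. Cxcl13 and Garnl3 fell by 0.34 ± 0.03 and 0.60 ± 0.06. Of 8 genes of small peritoneal macrophages 6 were tested, with 2 rises, 2 falls and a median of 0.02. Cd74, the invariant chain of class II, rose by 0.76 ± 0.05 and H2-Aa by 0.43 ± 0.11, while H2-Ab1 (-0.57 ± 0.07) and Irf4 (-0.82 ± 0.15) fell. Monocyte genes gave 3 falls and 0 rises among 4 tested of 6 (edgeR; 0 rises also at an unadjusted p of 0.05, by DESeq2 and by limma-voom). Among the falls were the coagulation factor subunit F13a1 (51.5 to 16.2 CPM, -1.67 ± 0.04) and Plac8 (-0.93 ± 0.03). Ly6c2 and Chil3, which define inflammatory monocytes, were below the filter, at 0.032 and 0.013 CPM in WT.

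**Figure D5:**
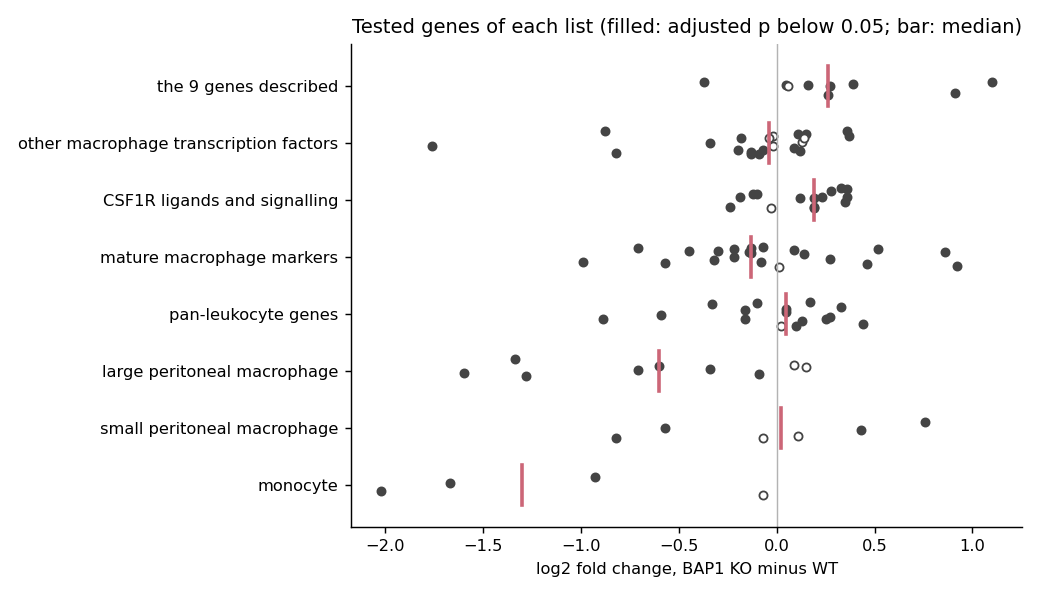
Log2 fold change of BAP1 KO minus WT (x axis) of each tested gene of 8 lists, filled where the adjusted p was below 0.05, with the median of each list as a red bar. Medians run from -1.30 for the monocyte genes to 0.26 for the 9 genes described, and each list except that of the large peritoneal macrophages and that of the monocytes holds genes called in both directions.

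Markers of other blood cells were low and those of fibroblasts high, and the part of either in the changes was not tested. Neutrophil genes, of which 2 of 9 were tested, summed to 7.63 to 8.62 CPM in WT and 6.95 to 7.52 CPM in BAP1 KO, mostly from Csf3r (-0.17 ± 0.06, adjusted p = 0.018). That call was lost without WT replicate 2 (0.061) or 3 (0.068) or BAP1 KO replicate 1 (0.082). The granule genes Mpo, Ltf and Elane were at 0.13, 0.021 and 0.015 CPM in WT, and the surface marker Ly6g at 0.0074 CPM. Dendritic cell genes, with 3 of 7 tested, summed to 24.9 to 25.4 and 19.6 to 22.4 CPM, where Zbtb46 (-0.41 ± 0.06) and Itgax (-0.18 ± 0.05) fell and Flt3 was at 0.014 CPM in WT. Mast cell genes summed to 3.51 to 3.92 and 3.61 to 3.87 CPM, and 0 of 6 passed (edgeR; 0 also at an unadjusted p of 0.05, by DESeq2 and by limma-voom). T and NK cell genes, with 3 of 9 tested, summed to 4.29 to 4.67 and 2.09 to 2.49 CPM, mostly Cd4 (-1.52 ± 0.11), which mouse macrophages can also carry, and Cd3e was at 0.073 CPM in WT. Of that list Lck fell (-0.53 ± 0.18, adjusted p = 0.012), a call lost without WT replicate 4 (0.055) or BAP1 KO replicate 3 (0.065). Cd2 rose (0.94 ± 0.35, adjusted p = 0.020) from 0.098 to 0.19 CPM, and that call was lost without WT replicate 3 (0.052) or BAP1 KO replicate 3 (0.074). B cell genes summed to 2.90 to 3.45 and 3.34 to 3.91 CPM, with a rise of Cd79a (0.63 ± 0.17), and 2 of the 5 passed as higher without WT replicate 3 or BAP1 KO replicate 1. Osteoclast genes, with 3 of 6 tested, gave a fall of Acp5 (-1.43 ± 0.06) and rises of Ctsk (0.75 ± 0.03) and Nfatc1 (0.23 ± 0.03), and summed to 69.5 to 73.0 and 87.3 to 90.9 CPM. Of 8 fibroblast genes 7 fell, among them Col1a2 (-0.45 ± 0.02) and Lum (-1.03 ± 0.04), and their sum went from 19257 to 20621 CPM in WT to 15459 to 16044 CPM in BAP1 KO. Of 7 endothelial genes, 6 were tested and 5 fell, among them Kdr (-0.60 ± 0.05) and Vwf (-0.70 ± 0.06), with sums of 46.0 to 47.6 and 30.0 to 32.2 CPM. Much of the WT sum came from Kdr (18.4 CPM), Lyve1 (17.3 CPM) and Vwf (9.41 CPM), and Lyve1 also fell (-0.54 ± 0.05). Pecam1, Tek and Emcn were at only 0.44, 0.25 and 0.16 CPM in WT, so the sum does not show that endothelial cells were present. Of the 13 mesothelial markers 6 rose, among them Cldn15 (0.81 ± 0.03), and 5 fell, among them Krt18 (-1.38 ± 0.07).

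Among themselves the 9 genes fell into like and unlike pairs. Likeness was measured as the root mean square difference, over the 8 libraries, of log2 CPM after each gene's WT mean was taken off. Nearness by this measure mostly reflects a like fold change, so for a gene with a large change a shared direction is built in. Csf1r and Adgre1 were nearest (0.081), then Spi1 and Maf (0.084), and Lyz1 and Ptprc were farthest (1.04). Over 12574 other genes the nearest to Lst1 was Marco (0.057), followed by Htra1 (0.062) and Ankrd1 (0.070). Those nearest to Lyz1 were Cacna1g (0.034), Trib3 (0.049) and Lrp2 (0.051). For Lyz2 they were Iah1 (0.009), Nek6 and Idua, and for Ptprc Dnajb4, Picalm (both 0.019) and Ncapg2. Csf1r lay nearest to Swap70 (0.009), Ankrd40 and Slc7a1, Adgre1 to Zmat3 (0.012), Plekha2 and Cnot1, and Cebpb to Pemt (0.045), Zbtb45 and Rbis. Spi1 lay nearest to Necap2 (0.016), Atp13a1 and H2-K1, and Maf to Hs6st2 (0.009), Vgll3 and Hspa1b. The number of genes within 0.1 was 4893 for Csf1r, 3779 for Adgre1, 1709 for Spi1, 1416 for Maf, 982 for Ptprc, 718 for Lyz2, 274 for Cebpb, 25 for Lst1 and 24 for Lyz1.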

How the data were processed

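Polyadenylated RNA of 8 libraries was analysed, 4 per genotype as labelled. Per the labels' protocols, RNA was DNase-treated on columns and made into TruSeq v2 libraries, which do not mark the strand, for single-end sequencing. Per the submitters' processing notes, GSNAP and GRCm38 were used; no source used here gives the version or the annotation. Per the file headers, the deposited counts are reads aligning uniquely to a gene model, and the deposited RPKM are adjusted by a size factor by the authors. Of 36528 Entrez identifiers, 31049 took a symbol from RefSeq (GRCm38.p6) and 77 from GENCODE vM21.

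The test was that of edgeR 4.0.16 on the counts (R 4.3.3; quasi-likelihood, TMM, filterByExpr, Benjamini-Hochberg over 16929 genes, threshold 0.05), after a test on simulated data. CPM refer to the TMM-adjusted total. With the origin of replicates unsaid, p-values reflect library-to-library spread alone, possibly technical. Between libraries of a genotype the median squared difference was 2.36 to 5.20 times that of counting noise. Each library was counted as 1 replicate, though this excess does not show that libraries stem from separate animals. Named genes were the 9, Bap1, up to 4 genes per list that passed, taken by lowest adjusted p, and the 3 nearest in pattern to each of the 9; others were named after their values were seen. Some genes are not reported here by name. The 9 genes and 20 further lists were chosen with earlier results of these data known. Alternatives used limma 3.58.1, DESeq2 1.42.0, other scalings and filters, the RPKM as log2(RPKM + 0.1), and each library left out.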

Additional observations from a re-analysis of the deposited data

Results flagged for a closer look

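In 2 of the 18 sets of 4 libraries (9 genes in 2 genotypes), 1 library stood apart from the other 3; chance alone marks about 1 set in 20. Lyz2 in BAP1 KO replicate 3 was at 10675 CPM, below the other 3 at 11119 to 11160 CPM, and still above each WT library. Cebpb in WT replicate 1 was at 106 CPM, below the other 3 at 123 to 126 CPM. Without that library the log2 fold change of Cebpb was 0.01 (edgeR adjusted p = 0.96).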

How the results depend on the processing

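Of the 9 genes, 8 kept their direction and their side of the threshold under all 17 alternatives, Cebpb among them as not passed. Csf1r kept its direction. Its call was lost at 0.04 (upper quartile factors), at 0.03 (scaling by library totals) and at 0.05 (no filter on low counts), and over the single libraries left out it ran from 0.04 to 0.06; the cause was not tested. The counts over all genes stayed within 1.5 times. Among the lists, no filter on low counts gave 1 higher and 2 lower neutrophil genes and 0 higher T and NK cell genes. With CPM above 1 in at least 4 libraries, which tests fewer genes, there were 0 lower lysozymes, 0 higher and 1 lower T and NK cell genes, 0 higher B cell genes and 3 lower endothelial genes. DESeq2 gave 0 higher T and NK cell genes. Pan-leukocyte scaling gave 1 higher large peritoneal macrophage gene, 2 higher lysozyme neighbours and 2 higher B cell genes, and the RPKM gave 2 higher lysozyme neighbours. With single libraries left out, the counts ran from 0 to 1 for higher large peritoneal macrophage genes, lower lysozymes, lower neutrophil genes and higher T and NK cell genes, and from 1 to 2 for lower T and NK cell genes and higher B cell genes. With CPM per kb of annotated exon, the WT places were 2 for Adgre1, 3 for Csf1r, 4 for Cebpb, 5 for Spi1, 6 for Lyz1, 7 for Maf, 8 for Lst1 and 9 for Ptprc. In BAP1 KO they were 2 for Adgre1, 3 for Csf1r, 4 for Cebpb, 5 for Lyz1, 6 for Spi1, 7 for Lst1 and 8 for Maf. Of 83 other genes named, 76 kept call and direction, 5 lost a call and 0 reversed. No paired analysis was possible because the labels carry no replicate numbers and those used here follow accession order.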

Other observations

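Cebpd, a relative of Cebpb, was at 39.6 CPM in WT replicate 1 and at 47.9 to 48.2 CPM in the other WT libraries. The same library also held the lowest WT values of Spi1 (130.5 CPM), Cebpa (93.3 CPM) and Irf8 (73.3 CPM). These genes were picked after their values were seen. Over the 24 macrophage transcription factors tested, Spi1, Maf and Cebpb included, WT replicate 1 was the lowest WT library for 9, or 37.5%, beside 29.4% of all genes tested. BAP1 KO replicate 3 was likewise the lowest BAP1 KO library for 9 (37.5%, beside 24.9% of all genes tested), and BAP1 KO replicate 2 for 8 (33.3%, beside 23.9%).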
